A study of Mus musculus with 6 samples.

Results

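Axon guidance genes encode ligands and receptors by which cells attract, repel or sort from their neighbours, and they were described here in muscle and epithelial cells sorted from the embryonic mouse trachea. The members were chosen by gene symbol from the table of counts per gene: ephrins (Efna, Efnb) and Eph receptors, semaphorins of classes 3 to 7 with their plexin and neuropilin receptors, Slits and Robo receptors, and netrins with the receptors Dcc, Neo1 and Unc5. 72 of the 23478 genes in the table were members, and all 72 were among the 19375 genes with enough counts to be tested. RNA was measured in 6 libraries at embryonic day 13.5, 3 of muscle cells sorted by eGFP and 3 of epithelial cells sorted by surface Epcam. All 6 had the genotype Bmp4 f/f; gamma SMA eGFP, that is floxed Bmp4 alleles with an eGFP reporter of the gamma smooth muscle actin gene, all are titled controls, and no treatment is labelled. The reporter defines the muscle gate, so cells that had not yet switched on that actin gene would not be collected as muscle. The labels do not say whether the libraries of a group came from separate embryos or pools, so p-values measure the spread between these libraries, which may be technical.

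Ephrins are cell-surface ligands of the Eph receptor tyrosine kinases. Ephrin-A ligands are tethered by a lipid anchor and bind mainly EphA receptors, ephrin-B ligands span the membrane and bind mainly EphB receptors, and contact between ligand and receptor cells often keeps tissues apart at a boundary. Semaphorins signal through plexins, the secreted class 3 members mostly with a neuropilin as co-receptor. Slits act on Robo receptors, and netrins act on Dcc and Neo1, mostly as attractants, or on Unc5 receptors, mostly as repellents. Outside the nervous system the same genes shape vessels and branching organs, and in the trachea they also belong to nerves and vessels that grow into the wall.

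Library totals ranged from 11847432 to 54848820 counts. CPM is the count divided by the library size, scaled by TMM (trimmed mean of M-values), per 1e6. Fold changes come from edgeR as log2 ratios, positive where muscle was higher, with their standard error (SE). Each population carried its own markers: 9 of 9 smooth muscle markers were higher in muscle and 10 of 10 epithelial markers were higher in epithelium, at a Benjamini-Hochberg adjusted p under 0.05 over all tested genes in edgeR's two-sided quasi-likelihood test. The lists include Actg2, the gamma smooth muscle actin gene of the reporter, and Epcam, the sorted surface protein, whose directions follow from the gates. Muscle replicate 2 had the lowest sum of smooth muscle markers, 4059 CPM against 16420 and 17456, while the epithelial libraries had 114 to 140. Markers of other cells were also present. The 10 endothelial markers summed to 87.6 to 126 CPM in muscle and 15.7 to 71.3 in epithelium, with 2 of 10 (Esam and Ramp2) past the threshold and higher in muscle. The 6 cartilage markers summed to 781 to 1351 CPM in muscle and 232 to 525 in epithelium, 3 of them past the threshold and higher in muscle. Neural and glial markers summed to 33.9 to 78.6 CPM in muscle and 36.6 to 92.8 in epithelium, with 0 of 9 tested past the threshold in edgeR, 2 at an unadjusted p under 0.05, and 1 called by DESeq2 (Ret) and 1 by limma-voom (Stmn2). The 8 immune markers summed to 3.42 to 45.8 CPM in muscle and 4.16 to 41.6 in epithelium, the 7 erythroid markers to 8.36 to 36.5 and 6.26 to 22.7, and the 5 mesothelial markers to 2.05 to 16.7 and 13.7 to 17.5, with 0 past the threshold in edgeR in each of these lists. Of these, only the mesothelial gene Upk1b had an unadjusted p under 0.05 and was called by DESeq2, and limma-voom called 0. The globin genes Hba-a1, Hba-a2, Hbb-bs and Hbb-bt were at 0 in every library. Genes of olfactory and vomeronasal receptors, which these cells should lack, averaged 0.99 CPM in epithelium replicate 2, and 0.54 and 0.41 CPM in muscle replicate 2 and epithelium replicate 3, against 0.0051 to 0.031 in the other 3 libraries. The part of such background in members at a few CPM was not tested. In bulk RNA, fewer cells of a type and less RNA per cell cannot be told apart.

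Of the 72 members, 14 were higher in muscle and 8 in epithelium, together 30.6%. Over all 19375 tested genes the corresponding share was 10.7%, made up of 6.58% with muscle above and 4.11% with epithelium above. Whether the members or any family among them differ from these shares was not tested. The direction of the calls moved with the scaling: by library size only the members split 11 to 11, and the share of all calls with muscle above was 42.0%, against 61.5% with TMM. Above a mean log2 CPM of 2, 22 of 60 members passed (36.7%), against 16.2% of 12738 genes. In 29 members the libraries of the groups did not overlap, 19 with muscle above and 10 with epithelium above. Of all tested genes 26.9% did not overlap, 16.4% with muscle above and 10.5% with epithelium above. All 29 had a mean log2 CPM of at least 2, where 29 of 60 members and 4729 of 12738 genes did not overlap. The median log2 fold change was -0.06 over the members and -0.10 over all tested genes. At the later of the 2 numbers in the file headers that read as dates, held by the replicates numbered 1 and 3 of each group, 17 members were higher in muscle and 9 in epithelium, all 22 among them. Calls over all tested genes rose as well at that later number, from 1274 to 1776 toward muscle and from 797 to 1152 toward epithelium. The earlier number has 1 library per group and allows no test. Without epithelium replicate 3, 8 members were higher in muscle and 8 in epithelium. The calls over all tested genes then fell to 570 toward muscle and 599 toward epithelium.

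**Figure D1:**
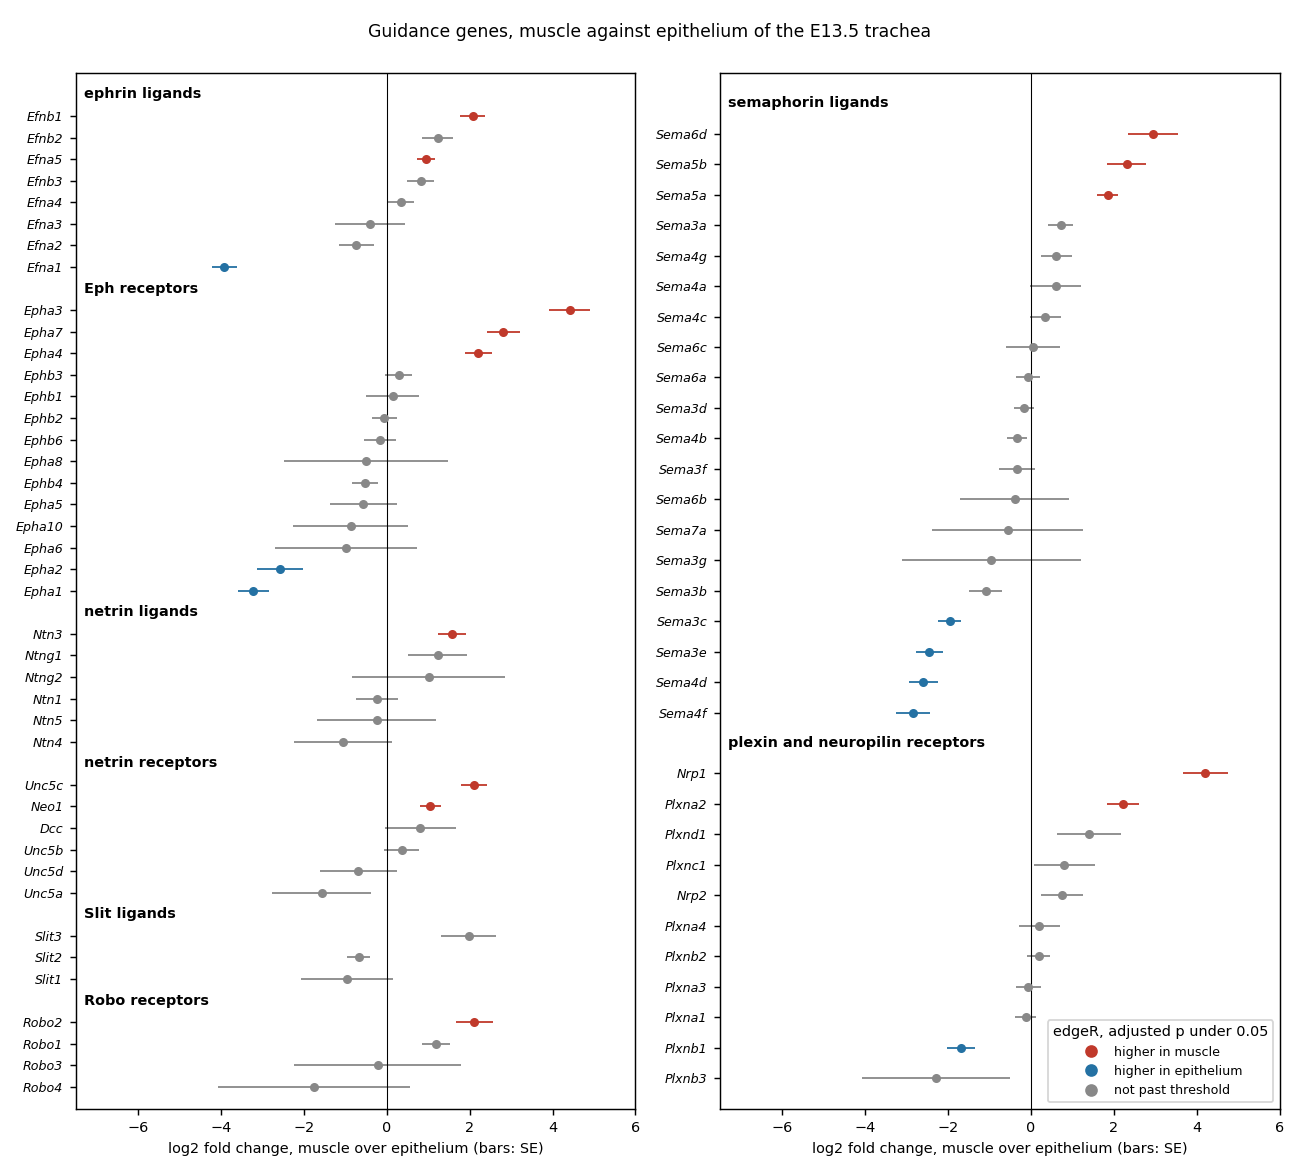
Log2 fold change of muscle over epithelium (x axis) for each of the 72 members, grouped by family, with SE bars; red marks the 14 members higher in muscle, blue the 8 higher in epithelium and grey the 50 not past the threshold. Each family of ephrins, Eph receptors, semaphorins and plexins with neuropilins has members on both sides.

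In the ephrin and Eph families the populations differed in the levels of 3 of 8 ligands and 5 of 14 receptors. Abundant members such as Efna4 and Ephb4 were shared without a call. Of all tested genes 10.7% were called, and 16.2% of those with a mean log2 CPM of at least 2. 3 EphA receptors (Epha3, Epha7, Epha4) and 2 ligands (Efnb1, Efna5) were higher in muscle, and 2 EphA receptors (Epha1, Epha2) and 1 ligand (Efna1) were higher in epithelium. Of the 5 EphB receptors, 0 passed the threshold in the edgeR fit as reported, in DESeq2 or in limma-voom. In that edgeR fit 0 had an unadjusted p under 0.05. The member with the largest fold change in each direction belongs here, and with the genomic neighbours of Efna1 their proximal promoters are shown as the sequence context of these unequal levels. Each is the 250 bases before a transcription start of the RefSeq annotation (GRCm38.p6), 5′ to 3′ on the gene's own strand, which is the minus strand for all 4. Capitals mark GGGCGG, the core of the GC box bound by Sp factors, or its reverse complement.
Efna1 (chr3:89280952-89281201): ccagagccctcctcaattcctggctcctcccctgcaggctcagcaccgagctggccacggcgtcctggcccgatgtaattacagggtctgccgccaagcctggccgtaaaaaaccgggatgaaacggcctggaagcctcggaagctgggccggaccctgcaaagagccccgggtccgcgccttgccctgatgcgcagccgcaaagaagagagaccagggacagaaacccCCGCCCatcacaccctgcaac
Efna3 (chr3:89322940-89323189): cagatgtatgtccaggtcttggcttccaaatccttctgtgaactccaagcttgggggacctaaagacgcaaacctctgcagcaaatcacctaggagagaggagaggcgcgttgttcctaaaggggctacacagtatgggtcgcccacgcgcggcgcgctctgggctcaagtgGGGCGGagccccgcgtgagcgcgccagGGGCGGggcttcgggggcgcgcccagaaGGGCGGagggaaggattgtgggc
Efna4 (chr3:89338029-89338278): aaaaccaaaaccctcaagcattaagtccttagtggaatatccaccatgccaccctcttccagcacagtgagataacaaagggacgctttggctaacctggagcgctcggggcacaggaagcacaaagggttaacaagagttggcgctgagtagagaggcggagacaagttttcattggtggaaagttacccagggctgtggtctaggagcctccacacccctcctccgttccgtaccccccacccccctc
Epha3 (chr16:63864176-63864425): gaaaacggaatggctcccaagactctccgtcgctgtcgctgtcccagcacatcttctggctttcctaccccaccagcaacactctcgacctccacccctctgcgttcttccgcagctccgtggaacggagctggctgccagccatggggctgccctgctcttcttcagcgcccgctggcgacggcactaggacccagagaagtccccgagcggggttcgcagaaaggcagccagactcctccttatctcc
Efna1 (chr3:89271730-89280951), Efna3 (chr3:89313899-89322939) and Efna4 (chr3:89333393-89338028) lie side by side among the members, with gaps of 32.9 and 10.5 kb. The windows shown held 1, 3 and 0 copies of the motif, and that of Epha3 held 0. The table has another window for Efna1 (chr3:89279646-89279895) with 2 copies and another for Efna3 (chr3:89321769-89322018) with 3. Over both strands, 46 of the 62 members with a promoter in the table held GGGCGG in at least 1 window (74.2%), among them 9 of 14 higher in muscle and 7 of 8 higher in epithelium, against 35.4% of all 27025 genes with a promoter, noncoding genes included. The CArG box, the site of serum response factor, was found in 2 of the 62 (Robo1 and Sema4d) and in 1.62% of all genes. TGTTTAC, a forkhead core, was found in 0 of 62 and in 3.54% of all, and CTTTGAT, a Tcf/Lef core, in 1 of 62 (Nrp2) and 3.72% of all. These are matches of letters in a short window and say nothing of a factor's binding.

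Efna1, an ephrin-A ligand of several EphA receptors, was at 27.1, 14.5 and 23.2 CPM in muscle replicates 1 to 3 and at 356, 315 and 307 CPM in epithelium replicates 1 to 3. The lowest epithelial library was 11.3 times the highest muscle library. The log2 fold change was -3.92 ± 0.31 (SE; edgeR, adjusted p = 0.00019), the largest toward epithelium among the members. Its neighbour Efna3 was at 1.98, 1.70 and 9.02 CPM in muscle and 8.25, 4.28 and 4.36 in epithelium, with overlap between the groups. Efna4 was at 69.1, 53.7 and 66.3 CPM in muscle and 67.6, 30.7 and 50.4 in epithelium (0.34 ± 0.30, adjusted p = 0.70). The 3 adjacent ephrin-A genes thus had a large difference at 1 gene and overlapping libraries at the others. Efna5, also an ephrin-A, was at 89.7, 89.9 and 111 CPM in muscle and 49.9, 46.7 and 54.5 in epithelium. The difference of 0.94 ± 0.22 (adjusted p = 0.025) held with no overlap between groups, but dropping 1 library ended the call in 5 of 6 cases (highest adjusted p 0.12). Efna2 (-0.74 ± 0.42, adjusted p = 0.40) did not pass.

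Efnb1, a transmembrane ephrin with a role in boundary formation, was at 258, 154 and 305 CPM in muscle and 65.7, 56.9 and 47.9 in epithelium. The lowest muscle library, replicate 2, was 2.34 times the highest epithelial one. Its log2 fold change was 2.07 ± 0.31 (edgeR, adjusted p = 0.0032). Efnb2, the ligand of Ephb4 in arteries and lymphatics, was at 26.6, 28.2 and 40.4 CPM in muscle and 9.98, 21.6 and 9.20 in epithelium. These groups did not overlap, yet the difference of 1.23 ± 0.37 did not pass (adjusted p = 0.074), and without epithelium replicate 2, its highest epithelial library, it did (adjusted p = 0.0095). In total, Efnb2 passed in 6 of 16 alternative fits. Efnb3 (0.81 ± 0.33, adjusted p = 0.18) did not pass. Per kb of the longest transcript in GENCODE, epithelium had Efna1 in front at 200 ± 16.1 CPM per kb (SD, n = 3), ahead of Efna4 at 31.0 ± 11.6. Muscle had Efnb1 in front at 73.4 ± 23.8 CPM per kb, then Efna4 at 39.4 ± 5.13 and Efna5 at 24.0 ± 2.99. With the median transcript length, the order of Efna4 and Efna5 in muscle was exchanged.

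Of the receptors, Epha3 had the largest fold change toward muscle among the members. It was at 278, 233 and 294 CPM in muscle and 7.16, 23.1 and 7.81 in epithelium, with the highest epithelial value in replicate 2. The log2 fold change was 4.42 ± 0.49 (edgeR, adjusted p = 0.00093), a 21.4-fold difference. Epha7 was at 446, 150 and 312 CPM in muscle and 49.9, 39.77 and 39.999 in epithelium. Muscle replicate 2 was far below the other muscle libraries and still above all epithelial ones, and the difference was 2.81 ± 0.40 (adjusted p = 0.0025). Epha4, which binds ligands of both ephrin classes, was at 125, 63.9 and 110 CPM in muscle and 28.0, 18.0 and 18.6 in epithelium (2.21 ± 0.33, adjusted p = 0.0031). Again the muscle libraries were spread and the groups were apart.

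Toward epithelium, Epha1 was at 4.71, 11.3 and 10.7 CPM in muscle and 92.3, 62.8 and 94.3 in epithelium. The groups were far apart, at a log2 fold change of -3.22 ± 0.38 (edgeR, adjusted p = 0.0011). Epha2, a receptor of ephrin-A1 known in epithelia, was at 2.81, 8.14 and 4.40 CPM in muscle and 16.6, 54.4 and 21.0 in epithelium. Its epithelial level rested in part on replicate 2. The difference was -2.58 ± 0.56 (adjusted p = 0.019), and it was -1.89 without epithelium replicate 2 (adjusted p = 0.053) and -2.47 without muscle replicate 3 (adjusted p = 0.057). Among the EphB receptors, Ephb4 was at 109, 90.8 and 158 CPM in muscle and 229, 149 and 136 in epithelium, with overlap (-0.52 ± 0.31, adjusted p = 0.41). Scaled by library size only, Ephb4 was called higher in epithelium (edgeR, adjusted p = 0.045). Ephb3 (0.29 ± 0.33), Ephb2 (-0.06 ± 0.30), Ephb6 (-0.15 ± 0.39), a receptor without kinase activity, and Ephb1 (0.14 ± 0.64) had differences smaller than their SE. Per length, Epha3 (47.4 ± 5.51 CPM per kb) and Epha7 (44.9 ± 22.0) led in muscle and did not differ beyond their spread, followed by Ephb4 (27.5 ± 8.01). In epithelium the order was Ephb4 (39.5 ± 11.7), Epha1 (25.4 ± 5.39) and Ephb3 (11.8 ± 4.09). Epha5, Epha6, Epha8 and Epha10 had means of 1.19 to 6.83 CPM in both groups and did not pass.

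**Figure D2:**
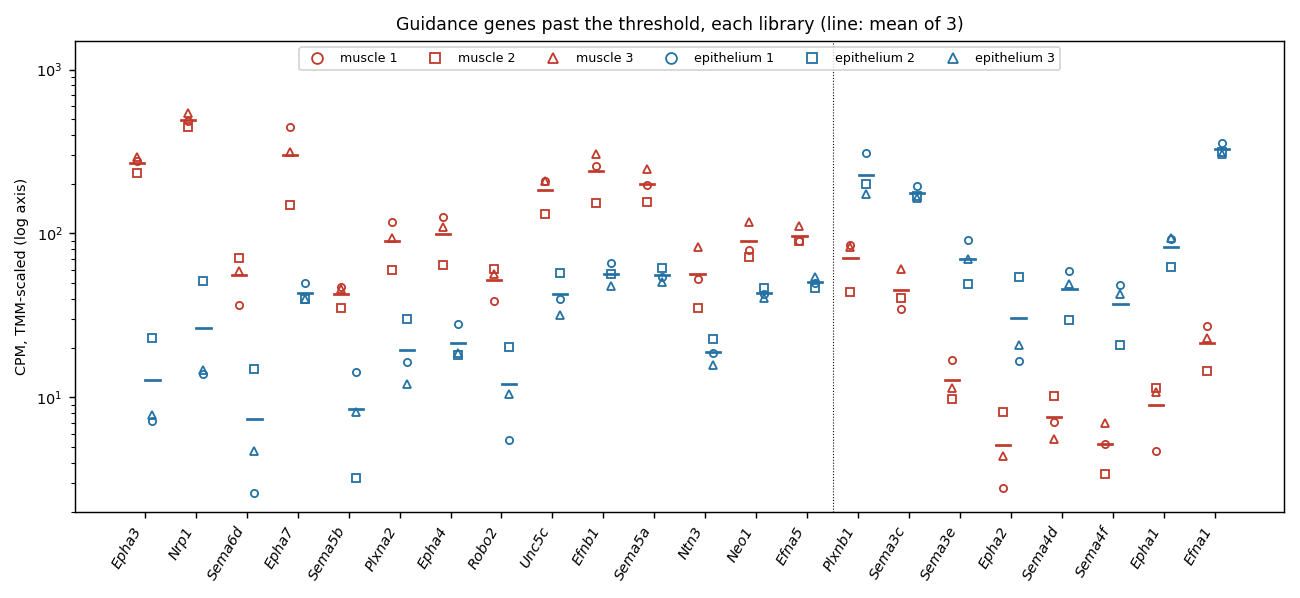
CPM (log axis) in each of the 6 libraries for the 22 members past the threshold, ordered by fold change, red for muscle and blue for epithelium with a symbol per replicate and a line at the mean of 3; the dotted line parts members higher in muscle from those higher in epithelium. In all 22 the groups are apart, and muscle replicate 2 (red square) is the lowest muscle library in 11 of the 14 on the left.

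Among the 20 semaphorins, muscle had 3 at a higher level and epithelium 4, beside 6.58% and 4.11% of all tested genes. The called members of a class shared a direction. Those higher in muscle were transmembrane members of classes 5 and 6 (Sema5a, Sema5b, Sema6d). Those higher in epithelium were the secreted class 3 members Sema3c and Sema3e and the membrane-bound class 4 members Sema4d and Sema4f. This grouping by class was seen after the values were known and was not tested.

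Sema3c, a secreted semaphorin that signals through neuropilins, was at 34.4, 40.4 and 60.6 CPM in muscle and 194, 170 and 164 in epithelium. The epithelial libraries were close together and all far above muscle, at a log2 fold change of -1.96 ± 0.28 (edgeR, adjusted p = 0.0025). Sema3e, which binds Plxnd1 without a neuropilin, was at 16.9, 9.84 and 11.4 CPM in muscle and 90.9, 48.9 and 70.1 in epithelium (-2.46 ± 0.33, adjusted p = 0.0019). Both genes lie on chromosome 5, as do Sema3a and Sema3d, and Sema3a is the nearest member to Sema3e at 422 kb. Sema3a, the classic repellent acting through Nrp1, was at 44.9, 27.0 and 33.5 CPM in muscle and 27.5, 21.7 and 14.9 in epithelium, and its groups overlapped (0.72 ± 0.30, adjusted p = 0.21). Sema3d (-0.17 ± 0.25, adjusted p = 0.88) had nearly equal levels of 41.8 ± 10.2 and 46.9 ± 3.89 CPM. The 4 class 3 genes of that chromosome thus held 2 calls toward epithelium and 2 genes with no call. Sema3b was at 6.77, 12.2 and 6.02 CPM in muscle and 19.5, 12.7 and 21.1 in epithelium, with no overlap but no call (-1.10 ± 0.39, adjusted p = 0.13). Sema3f, which acts mainly through Nrp2, was at 7.98, 9.84 and 12.2 CPM in muscle and 17.7, 14.03 and 6.08 in epithelium, and its difference of -0.33 ± 0.44 changed sign without epithelium replicate 1. Sema3g was low, at 0 to 2.03 CPM over all libraries.

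Sema4d, the ligand of Plxnb1, was at 7.07, 10.2 and 5.54 CPM in muscle and 58.7, 29.8 and 48.9 in epithelium. The lowest epithelial library, replicate 2, was 2.93 times the highest muscle one, and the difference was -2.60 ± 0.35 (edgeR, adjusted p = 0.0020). Sema4f was at 5.21, 3.39 and 6.93 CPM in muscle and 48.4, 20.9 and 42.7 in epithelium, with groups far apart (-2.85 ± 0.41, adjusted p = 0.0026). The other class 4 genes Sema4a, Sema4b, Sema4c and Sema4g had log2 fold changes between -0.33 and 0.61 and did not pass.

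Sema5a, a transmembrane semaphorin with thrombospondin repeats, was at 196, 156 and 247 CPM in muscle and 54.2, 61.4 and 50.6 in epithelium. Every muscle library was above every epithelial one, at a log2 fold change of 1.85 ± 0.26 (edgeR, adjusted p = 0.0023). Its relative Sema5b was at 47.3, 35.1 and 45.8 CPM in muscle and 14.2, 3.21 and 8.15 in epithelium (2.31 ± 0.47, adjusted p = 0.014). The call of Sema5b was lost without epithelium replicate 3 (adjusted p = 0.074). Sema6d, a class 6 ligand of A-type plexins, was at 36.8, 70.9 and 58.7 CPM in muscle and 2.62, 14.8 and 4.73 in epithelium (2.93 ± 0.60, adjusted p = 0.015). Here muscle replicate 2 was the highest muscle library, and without epithelium replicate 3 the adjusted p was 0.083. Sema6a was at 129, 75.5 and 110 CPM in muscle and 137, 79.1 and 115 in epithelium, one of the most abundant semaphorins in both and nearly equal (-0.07 ± 0.30, adjusted p = 0.96). Sema6b (-0.40 ± 1.31), Sema6c (0.05 ± 0.66) and the lipid-anchored Sema7a (-0.57 ± 1.81) were low and did not pass. Per length, epithelium held Sema3c (32.1 ± 2.87 CPM per kb) above Sema6a (16.1 ± 4.25). Muscle held Sema5a (18.5 ± 4.20) and Sema6a (15.3 ± 3.94) within their spread, and the order of this pair was exchanged with the median transcript length.

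The receptors of semaphorins differed in 3 of 11 cases, beside calls in 10.7% of all tested genes. Nrp1, a co-receptor of class 3 semaphorins and of vascular endothelial growth factor, was at 484, 444 and 540 CPM in muscle and 13.8, 51.5 and 14.6 in epithelium. The lowest muscle library was 8.63 times the highest epithelial one, both being replicate 2. Its log2 fold change was 4.21 ± 0.55 (edgeR, adjusted p = 0.0017), an 18.5-fold difference, and per length it was the most abundant member in muscle at 136 ± 13.4 CPM per kb. Endothelial cells also express Nrp1. Of the 10 endothelial markers, 4 had every muscle library above every epithelial one, as Nrp1 did. Of these, Esam was at 28.9, 20.4 and 28.8 CPM in muscle and 0.86, 8.09 and 2.48 in epithelium, and Tek at 34.6, 26.6 and 32.9 against 0.73, 15.3 and 4.77. Erg and Ramp2 were the others. The other 6 (Pecam1, Cdh5, Tie1, Emcn, Cldn5 and Egfl7) overlapped, with Pecam1 at most 6.42 CPM in muscle and 6.48 in epithelium. The part of endothelial RNA in the Nrp1 level was not tested. Nrp2 was at 427, 92.7 and 314 CPM in muscle and 232, 112 and 155 in epithelium. Muscle replicate 2 fell below every epithelial library, and the difference of 0.74 ± 0.51 did not pass (adjusted p = 0.53). Without that library it was 1.16 (adjusted p = 0.049).

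Plxna2 was at 117, 59.96 and 94.1 CPM in muscle and 16.3, 30.1 and 12.1 in epithelium, and the lowest muscle library was 1.99 times the highest epithelial one (2.22 ± 0.39; edgeR, adjusted p = 0.0075). Plxnb1, the receptor of Sema4d, was at 85.3, 43.8 and 82.9 CPM in muscle and 309, 200 and 174 in epithelium (-1.69 ± 0.34, adjusted p = 0.014). Ligand and receptor of this pair were thus both higher in epithelium. Plxnb2 was abundant and nearly equal, at 338, 218 and 346 CPM in muscle and 336, 232 and 227 in epithelium (0.18 ± 0.28). Plxna1 (-0.13 ± 0.26) and Plxna3 (-0.07 ± 0.31) also had differences smaller than their SE. The sign for Plxna1 changed in 2 of 16 alternative fits, as did that for Plxnb2, whose value was -0.09 when scaled by library size only. Plxnd1, the receptor of Sema3e and best known from vessels, was at 7.91, 9.69 and 12.7 CPM in muscle and 0.67, 4.68 and 6.16 in epithelium, without overlap but without a call (1.40 ± 0.77, adjusted p = 0.37). Of the 16 alternative fits only limma-voom called Plxnd1 (adjusted p = 0.034). Plxnc1, Plxna4 and Plxnb3 were low and did not pass.

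**Figure D3:**
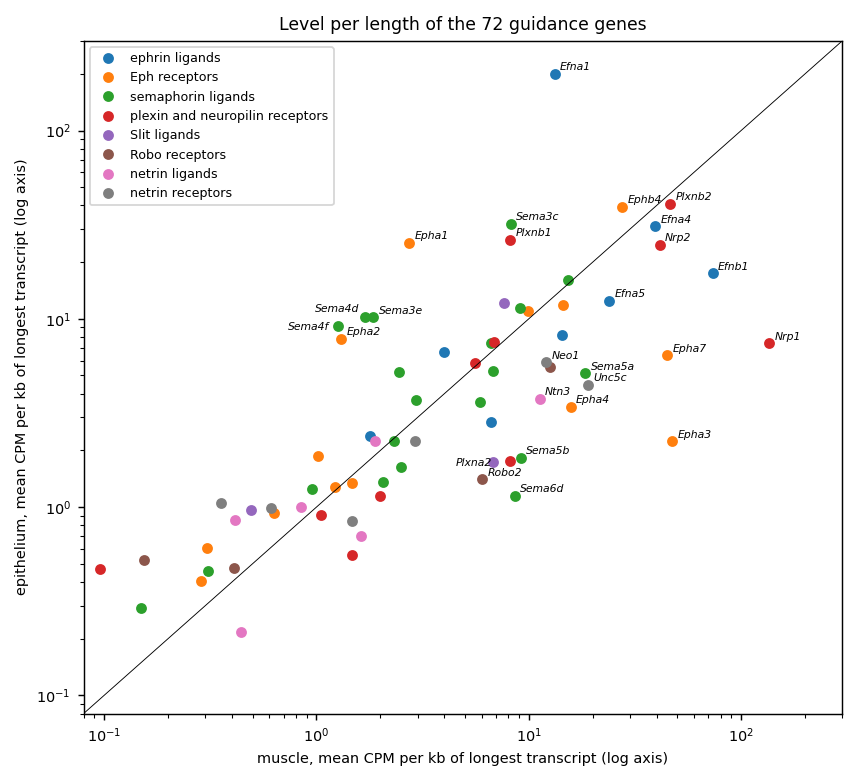
Mean CPM per kb of the longest transcript in muscle (x axis, log) against epithelium (y axis, log) for the 72 members, coloured by family, with the line of equal level; named are members past the threshold or over 20 CPM per kb. Nrp1 at 136 lies farthest right and Efna1 at 200 highest, while Plxnb2 and Efna4 lie near the line. Nrp2 (41.3 in muscle, 24.7 in epithelium) and Ephb4 (27.5 in muscle, 39.5 in epithelium) lie somewhat farther off.

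In the Slit and Robo families the receptor Robo2 was higher in muscle, and 0 of 3 Slits passed in edgeR, while DESeq2 called 1 (Slit2) and limma-voom 1 (Slit3). Robo2 was at 38.5, 60.5 and 56.4 CPM in muscle and 5.46, 20.3 and 10.5 in epithelium. The muscle libraries all stood above epithelium at a log2 fold change of 2.11 ± 0.45 (adjusted p = 0.018), which was lost without epithelium replicate 3 (adjusted p = 0.086) and when scaled by library size only (0.086). Robo1, its neighbour on chromosome 16 at 844 kb, was at 112, 66.6 and 107 CPM in muscle and 58.6, 40.2 and 26.9 in epithelium. These groups did not overlap either, but 1.18 ± 0.34 did not pass (adjusted p = 0.058), although it did in 8 of the 16 alternative fits. Per length Robo1 exceeded Robo2 in both populations, at 12.6 ± 3.28 against 6.03 ± 1.37 CPM per kb in muscle and 5.54 ± 2.10 against 1.41 ± 0.88 in epithelium. Robo3 and the vascular receptor Robo4 were at 0 in epithelium replicate 1 and at most 5.81 CPM in any library, with the highest values in the libraries that had the most background counts.

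Slit2 was at 81.0, 71.8 and 75.2 CPM in muscle and 169, 98.1 and 97.5 in epithelium, so that all epithelial libraries lay above muscle. The difference was small, -0.68 ± 0.28 (unadjusted p = 0.036; edgeR, adjusted p = 0.18). Slit3 went the other way, at 26.3, 34.2 and 45.7 CPM in muscle and 2.06, 18.6 and 6.57 in epithelium. Its groups did not overlap, and 1.98 ± 0.66 did not pass (adjusted p = 0.10). Without epithelium replicate 2 it was 3.05 (adjusted p = 0.006). Slit1 was low, at 0.74 to 11.4 CPM over all libraries. The 3 Slits had unadjusted p-values under 0.05 in 2 cases. Per length, Slit2 (7.63 ± 0.47 CPM per kb) and Slit3 (6.77 ± 1.86) were within their spread in muscle, while in epithelium Slit2 (12.2 ± 4.13) stood above Slit3 (1.74 ± 1.64).

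Of the netrins and netrin-G genes 1 of 6 passed, and of the netrin receptors 2 of 6, all 3 higher in muscle. The share of all tested genes called was 10.7%, and 16.2% at a mean log2 CPM of at least 2. Ntn3, a secreted netrin, was at 52.9, 34.9 and 82.4 CPM in muscle and 18.6, 22.6 and 15.8 in epithelium. The muscle libraries were spread but all above epithelium, at a log2 fold change of 1.58 ± 0.34 (edgeR, adjusted p = 0.017). Without epithelium replicate 3 the adjusted p was 0.086. Ntn1, the best known netrin, was at 8.89, 9.49 and 14.9 CPM in muscle and 23.1, 5.88 and 10.4 in epithelium (-0.24 ± 0.51, adjusted p = 0.92), and its value changed sign without epithelium replicate 1. Ntn4, Ntn5, Ntng1 and Ntng2 had means of 0.41 to 9.09 CPM and did not pass. Per length Ntn3 led both populations, at 11.3 ± 4.75 CPM per kb in muscle and 3.77 ± 0.67 in epithelium.

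Unc5c, a netrin receptor known for repulsion, was at 208, 132 and 210 CPM in muscle and 39.9996, 57.1 and 31.7 in epithelium. The lowest muscle library was 2.31 times the highest epithelial one, with a log2 fold change of 2.10 ± 0.31 (edgeR, adjusted p = 0.0033). Neo1, a receptor of netrins and of repulsive guidance molecules, was at 78.8, 72.1 and 117 CPM in muscle and 42.7, 46.6 and 40.5 in epithelium. Its groups stood apart, at 1.05 ± 0.26 (adjusted p = 0.031), but dropping 1 library ended the call in 4 of 6 cases (highest adjusted p 0.17). Dcc was at 12.2, 21.4 and 11.7 CPM in muscle and 0.63, 16.3 and 9.09 in epithelium. Epithelium replicate 1 had almost none while replicate 2 was above 2 muscle libraries, and the difference of 0.81 ± 0.86 did not pass (adjusted p = 0.79). It was 2.77 in limma-voom (adjusted p = 0.046) and 2.25 with background counts as a covariate (adjusted p = 0.016), both past the threshold, and 1.70 without epithelium replicate 2 (adjusted p = 0.38). Unc5b (0.36 ± 0.43, adjusted p = 0.83), Unc5a and Unc5d did not pass either. Per length, Unc5c (19.0024 ± 4.63 CPM per kb) was above Neo1 (12.1 ± 3.31) in muscle, and in epithelium Neo1 (5.87 ± 0.42) and Unc5c (4.45 ± 1.34) differed little and changed order with the median transcript length.

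Other genes of these pathways were taken from 2 lists. To set beside their counts, 10.7% of all tested genes were called in either direction. Of those with a mean log2 CPM of at least 2, 16.2% were called. Whether either list differs from these shares was not tested. Of 30 other ligands and binding partners of guidance receptors, 5 were higher in muscle and 2 in epithelium, with a median log2 fold change of 0.30. Flrt2, a membrane protein that binds Unc5 receptors, was at 798, 444 and 769 CPM in muscle and 78.7, 111 and 65.7 in epithelium. The groups were far apart, at a log2 fold change of 2.98 ± 0.34 (edgeR, adjusted p = 0.00096). The integrin gene Itga1 (5.30 ± 0.80) and the heparan sulfate proteoglycan gene Sdc2 (1.78 ± 0.24) were also higher in muscle. Sdc4 (-1.89 ± 0.26) and Met (-1.84 ± 0.25), which encodes a receptor that pairs with B-type plexins, were higher in epithelium. Of 50 genes of intracellular signalling, 4 were higher in muscle and 4 in epithelium, with a median of 0.17. Sh2d3c, an adaptor of Eph receptors, was at 161, 132 and 157 CPM in muscle and 8.64, 13.4 and 13.1 in epithelium (3.68 ± 0.28; edgeR, adjusted p = 0.00016). Mical1 (2.00 ± 0.40), an enzyme that oxidizes actin downstream of plexins, and Vasp (1.14 ± 0.27) were higher in muscle too. Dpysl5, of the collapsin response mediators, was at 15.1, 7.99 and 12.6 CPM in muscle and 209, 73.65 and 138 in epithelium (-3.56 ± 0.43, adjusted p = 0.0013). Arhgap39 (-1.73 ± 0.45) and the kinase gene Pak1 (-1.64 ± 0.28) were higher in epithelium.

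Of the 50 members that did not pass, 16 had a mean of at least 20 CPM in both groups, among them Ephb4, Plxnb2, Nrp2 and Sema6a. Another 21 had means under 10 CPM in both groups, and 0 of these passed in edgeR, DESeq2 or limma-voom or had an unadjusted p under 0.05 in edgeR. In 15 of the 21, epithelium replicate 2 was the highest epithelial library, and in 17 of 21 muscle replicate 2 was the highest muscle library. These are the libraries with the most background counts in each group. Their part in the values of these 21 genes was not tested. Among the 14 members higher in muscle, muscle replicate 2 was the lowest muscle library in 11, and epithelium replicate 2 was the highest epithelial library in 9. Of all 72 members, called or not, muscle replicate 2 was the lowest muscle library in 33. Smooth muscle markers were also lowest in muscle replicate 2. Without that library 17 members were higher in muscle, the 14 included, while calls toward muscle over all tested genes rose from 1274 to 1655. A count of calls does not measure the part of that library in these values, which was not tested.

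**Figure D4:**
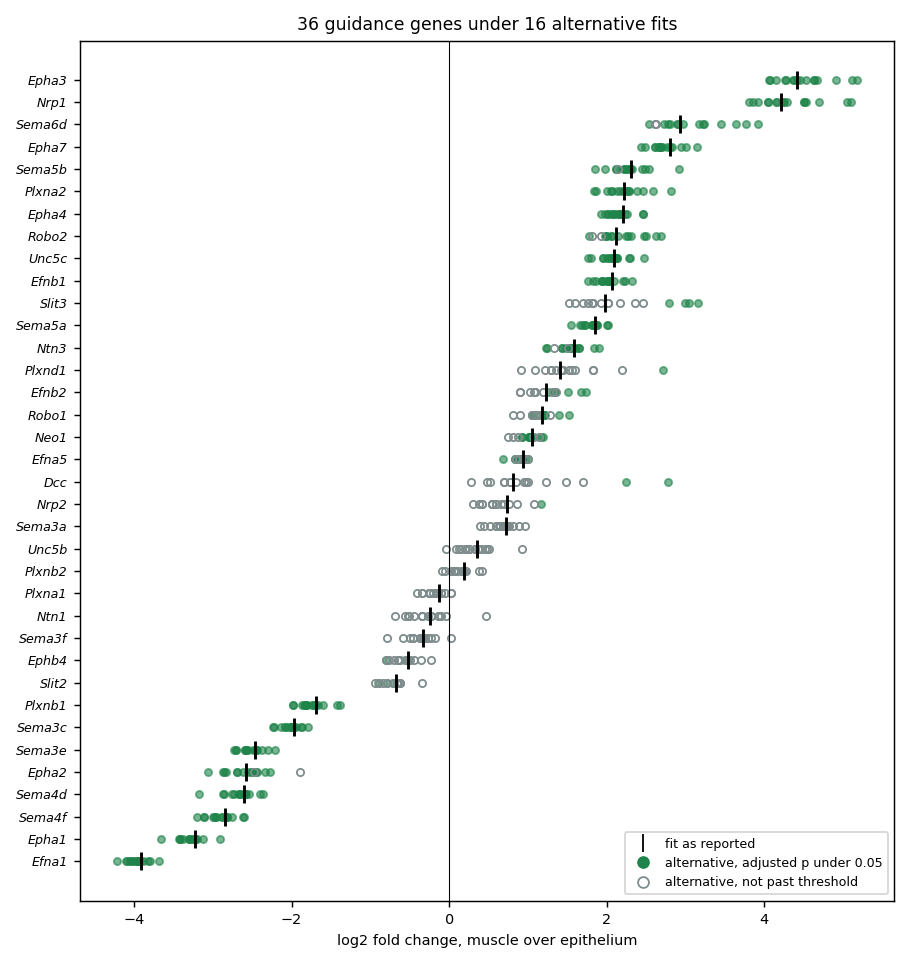
Log2 fold change of muscle over epithelium (x axis) for 36 members, with a black bar for the fit as reported and a circle for each of 16 alternative fits, filled green where the adjusted p was under 0.05. The 22 called members keep their direction in all fits, and 15 of them are past the threshold in every one.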

How the data were processed

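Counts per gene symbol in 6 libraries were analysed as the authors deposited them, and the library is the replicate. Per the labels' protocols, tissue was dissociated with TrypLE for 15 minutes, RNA was extracted with Trizol, and libraries were made with SMART-Seq v4 and Nextera XT. These kits mark neither molecules nor strand, so counts include PCR copies and overlapping genes are uncertain. Of the nonzero counts up to 19 in a library, 73.8% to 79.6% were even, and the cause was not tested. Trim Galore, Bowtie2, Cufflinks, DESeq and mm10 are listed in the submitters' processing notes, and the counting program and annotation are not given in the sources used here. After filterByExpr by group and TMM scaling, muscle was compared with epithelium in R 4.3.3 with the quasi-likelihood test of edgeR 4.0.16 (robust, two-sided, no covariate). P-values were adjusted by Benjamini-Hochberg across every tested gene, at a threshold of 0.05. The script was tested on simulated data. DESeq2 1.42.0, limma 3.58.1 (voom), other scalings and filters, the replicate number, the header date or background counts as a term, and leaving out each library were alternatives. The fit on the later header date was added after seeing the data. SE was derived from the test statistic. Level per length is CPM per kb of the longest GENCODE M21 basic transcript. An exact permutation test of 1 value over 3 against 3 libraries cannot go below 0.10. Named in full were the members past the threshold, those with the highest mean CPM of each family, those without overlap at an adjusted p from 0.05 to 0.10, and ligand and receptor pairs listed by name. The members and lists were chosen with earlier results of these data known. Positions and promoters are from RefSeq (GRCm38.p6), found for 72 and 62 of the 72 members.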

Additional observations from a re-analysis of the deposited data

How the results depend on the processing

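The 22 called members had the same direction in all 16 alternative fits, and 15 were past the threshold in each of them. Epha2, Efna5, Neo1, Ntn3, Robo2, Sema5b and Sema6d were not. Leaving out 1 library gave 8 to 17 members higher in muscle and 7 to 9 higher in epithelium, and over all tested genes 570 to 1655 and 514 to 918. At an adjusted p under 0.01, 8 members were higher in muscle, and over all genes 579 in muscle and 404 in epithelium. The fit as reported called 14 members higher in muscle and 8 in epithelium, and over all genes 1274 and 797. In the same order, DESeq2 called 15 and 9 members, and over all genes 1954 and 1585. With limma-voom there were 20 and 9 members, and over all genes 1590 and 896. The header date as a term gave 16 and 8 members, and over all genes 2054 and 1124. Background counts as a covariate gave 19 and 9 members, and over all genes 1729 and 1222. Scaling by library size only gave 1041 and 1439 over all genes. That scaling moved the median log2 fold change from -0.10 to -0.33 over all genes and from -0.06 to -0.32 over the members, and the share of calls higher in muscle over all genes from 61.5% to 42.0%. It gave 11 members in each direction. The members' median ranged from -0.15 to 0.20 without a library.

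With the replicate block 14 members were higher in muscle, 13 of them among the 14, and 8 in epithelium. Ntn3 lost its call (adjusted p = 0.051) and Robo1 gained one (adjusted p = 0.046). Deviations from the group mean correlated over the 72 members at 0.61 for the libraries numbered 1, 0.75 for those numbered 2 and -0.56 for those numbered 3. Over all 19375 tested genes the values were nearly the same, 0.59, 0.73 and -0.57. Over 3810 genes of high level they were 0.19, 0.16 and -0.21. These values cannot decide pairing, because background counts also differed between libraries, among them those numbered 3. The fit as reported did not take the numbers to pair the samples. Signs changed for members without a call: Ntn1 (from -0.68 to 0.47 over the fits without a library), Sema3f (-0.79 to 0.018), Plxna1 (-0.35 to 0.022, and 0.020 without muscle replicate 2), Plxnb2 (-0.049 to 0.41, and -0.094 by library size only) and Unc5b (-0.041 to 0.92). The cause was not tested. The order of members per length within a family was recomputed with median transcript lengths, and where it exchanged members whose order the text gives, this is said beside the levels.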
